A study of Mus musculus with 7 samples.

Results

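The 5 libraries of induced neural stem cells (iNSCs), of 7 libraries in the series, were split by their transcript level of Pou3f4, the gene of the POU transcription factor Brn4. Both the libraries of each side and the genes described were thus chosen by measured values of these same libraries. Libraries with at least 10 FPKM (fragments scaled to transcript length and library size) formed the Pou3f4-expressing side, which held pBKSM and DTA. Libraries under 10 FPKM formed the Pou3f4-low side, which held pOKSM, mcBKSM clone 1 and mcBKSM clone 3. A library of mouse embryonic fibroblasts (MEFs) and a library of control neural stem cells (cNSCs) took no part in the split. Pou3f4 was 19.99 FPKM in pBKSM and 24.1 FPKM in DTA. In pOKSM it was 2.26 FPKM, both mcBKSM clones and MEF had a value of 0, and cNSC held 27.2 FPKM. The nearest library above the threshold was thus pBKSM and the nearest below it pOKSM. The differences between the sides are given as a description, with no p-value.

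All iNSC libraries came from fibroblasts of embryonic day 13.5 that had been infected with lentivirus or retrovirus and cultured in neural stem cell medium. In the line names B stands for Brn4 and O for Oct4 (gene Pou5f1), each with Klf4, Sox2 and Myc, from a polycistronic (p) or monocistronic (mc) vector; this reading of the letters is background and the labels do not spell it out. The pBKSM, pOKSM and mcBKSM cells and the MEFs had the genotype Oct4-CreER x Rosa26-loxSTOPlox-EYFP, with a fluorescent reporter, and the strain C57BL/6-Pou5f1 x 129X1/SvJ. The DTA cells had the genotype Oct4-CreER x Rosa26-loxSTOPlox-DTA, in which Cre switches on a diphtheria toxin gene, their strain is labelled Unknown, and their vector is not given in the labels. The cNSCs were cortical cells of OG2/ROSA26 embryos of the same day, with heterozygous female mice named as the strain. All 5 iNSC lines thus share Oct4-CreER, while the allele it acts on and the strain label differ within the Pou3f4-expressing side. Whether the vector also differs there cannot be told from the labels. RNA was pooled from 2 to 3 biological replicates for each library, so the spread within a line is not seen.

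The sides do not follow the letters in the names. The name mcBKSM holds a B, yet Pou3f4 was listed at 0 in both clones, and pOKSM, whose name holds none, had a low level. Whether vector transcripts are counted in the FPKM of a gene is not stated in the labels, and whether the clones differ from their labels was not tested. A value of 0 for Pou3f4 therefore describes the deposited table and does not show that a vector was absent. From the steps between low values, 3 fragments of a 2 kb transcript are worth 0.0925 FPKM in the deepest library, DTA, and 0.140 FPKM in the shallowest, pBKSM. The low-side libraries resembled each other: of the genes that reached 5 FPKM in 1 or both of a pair, the clones differed 2-fold or more at 1.26%, and pOKSM differed from them at 2.81% and 2.26%. On the other side pBKSM and DTA differed 2-fold or more at 10.5%, about as many as pBKSM and pOKSM across the sides, at 11.6%. The other pairs across the sides differed at 16.3% (pOKSM and DTA) to 21.96% (clone 1 and DTA). All 5 lines expressed Nes, the intermediate filament gene of neural progenitors, between 132 FPKM in clone 3 and 275 FPKM in pBKSM. The collagen gene Col1a1 was at most 0.962 FPKM in these lines against 439.8 FPKM in MEF.

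Class III POU factors (Pou3f1, Pou3f2, Pou3f3 and Pou3f4) are made in the developing nervous system and bind DNA through a POU-specific domain and a homeodomain. They recognise the octamer ATGCAAAT and related sites, often beside a SoxB1 protein such as Sox2, and take part in keeping and differentiating neural progenitors. Pou3f4 is an X-linked gene without introns, known for its roles in the inner ear and in striatal neurons. The 250 bases before its annotated start are printed because its level defines the sides (RefSeq, GRCm38.p6, the build called mm10, chrX:110814129-110814378, plus strand). The octamer was not found in this window on either strand.

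Pou3f4: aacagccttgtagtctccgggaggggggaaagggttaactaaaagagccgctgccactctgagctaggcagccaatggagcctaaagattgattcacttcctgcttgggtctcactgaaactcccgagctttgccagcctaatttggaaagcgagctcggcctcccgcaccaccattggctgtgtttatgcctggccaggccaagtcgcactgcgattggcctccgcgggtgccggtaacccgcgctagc

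The class III genes did not follow one pattern. Pou3f3, a factor of cortical progenitors and upper-layer neurons, was present in every line, at 51.3 FPKM in pBKSM and 43.7 in DTA against 35.6, 29.4 and 32.1 in pOKSM, clone 1 and clone 3. Pou3f2, which encodes the proneural factor Brn2, was 5.06 and 7.19 FPKM against 12.5, 12.2 and 11.6 in the same order. Pou3f1 was 15.4 FPKM in pBKSM, 3.498 in pOKSM, 1.87 in DTA, 0.0780 in clone 3 and listed at 0 in clone 1. The sides did not overlap for Pou3f3 or Pou3f2, in opposite directions, and overlapped for Pou3f1. Each low-side library therefore held more Pou3f2 than either library of the Pou3f4-expressing side. Values in this order, pBKSM and DTA against pOKSM, clone 1 and clone 3, are used from here on unless libraries are named.

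Of the other reprogramming factor genes, Sox2 and Myc were lower on the Pou3f4-expressing side. Transcripts of a vector and of the cell's own gene cannot be told apart in the values of these factors, here and below. Sox2, the SoxB1 factor that maintains neural progenitors, was 87.6 and 106 FPKM against 277, 342 and 389.8. Myc, a driver of growth and ribosome production, was 78.9 and 50.1 FPKM against 339, 449.6 and 485. The sides did not overlap for either gene, and pBKSM and DTA were the libraries nearer to cNSC, which held 107 FPKM of Sox2 and 42.5 of Myc. Klf4 overlapped between the sides, from 5.20 FPKM in pOKSM to 16.6 in clone 1. Pou5f1 was listed at 0 in pBKSM and DTA and was at most 0.398 FPKM on the low side, below the filter for the comparison.

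**Figure D1:**
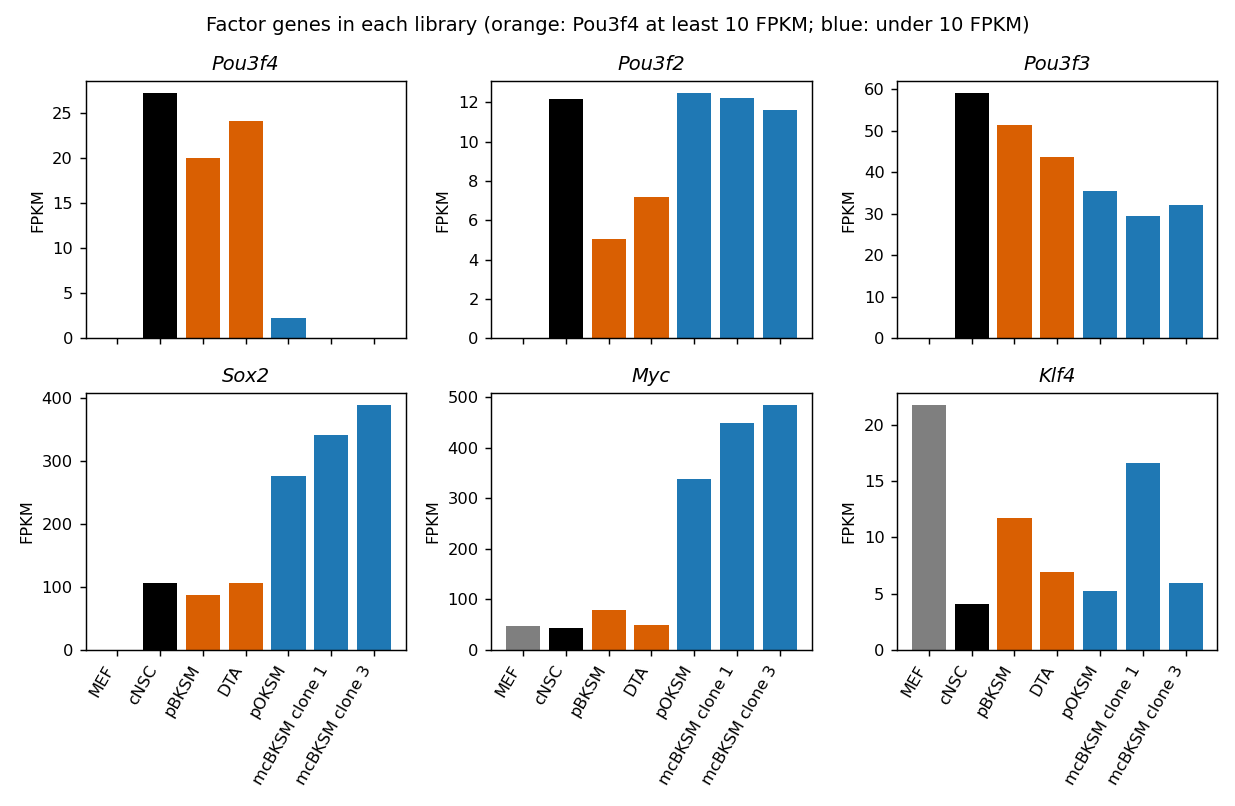
FPKM (vertical axes, from 0) of 6 factor genes in each of the 7 libraries (horizontal axis); each bar is 1 library, orange for the Pou3f4-expressing side, blue for the low side, grey for MEF and black for cNSC. Pou3f4 is 19.99 and 24.1 FPKM in the orange libraries and at most 2.26 in the blue ones, while Sox2 and Myc are higher in every blue library than in either orange one.

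Genes were compared on log2(FPKM + 1), a scale that understates differences of low genes. Of 12378 genes that reached 1 FPKM in any iNSC library, 3538 (28.6%) were higher on the Pou3f4-expressing side without overlap and 3543 (28.6%) were lower, together 57.2%. Separation of the sides was thus common among all genes and says little about a single one. A stricter set, chosen by the same log2(FPKM + 1) values, was formed by the gap, the distance between the nearest libraries of opposite sides. With a gap of at least 1 log2 unit, 299 genes were higher (2.42%) and 390 lower (3.15%), together 5.57%. Their median differences between side means were 2.05 and -2.15 log2 units, against 0.01 for all tested genes. At the edge of the set, Tmem106b was just inside with a gap of 1.01 and Yipf6 just outside with 0.999 among higher genes. Among lower genes Rhou was just inside with 1.002 and Pprc1 just outside with 0.998.

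The widest gaps were among lower genes: 81 lower and 17 higher genes had a gap of 2 to 3, and 33 lower and 3 higher genes had a gap above 3. The counts rest on single libraries. Without pBKSM there were 976 higher and 771 lower genes, without DTA 657 and 645, and without pOKSM 679 and 552. All of the 299 and 390 genes were among these, since a gap can only widen when a library is left out.

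**Figure D2:**
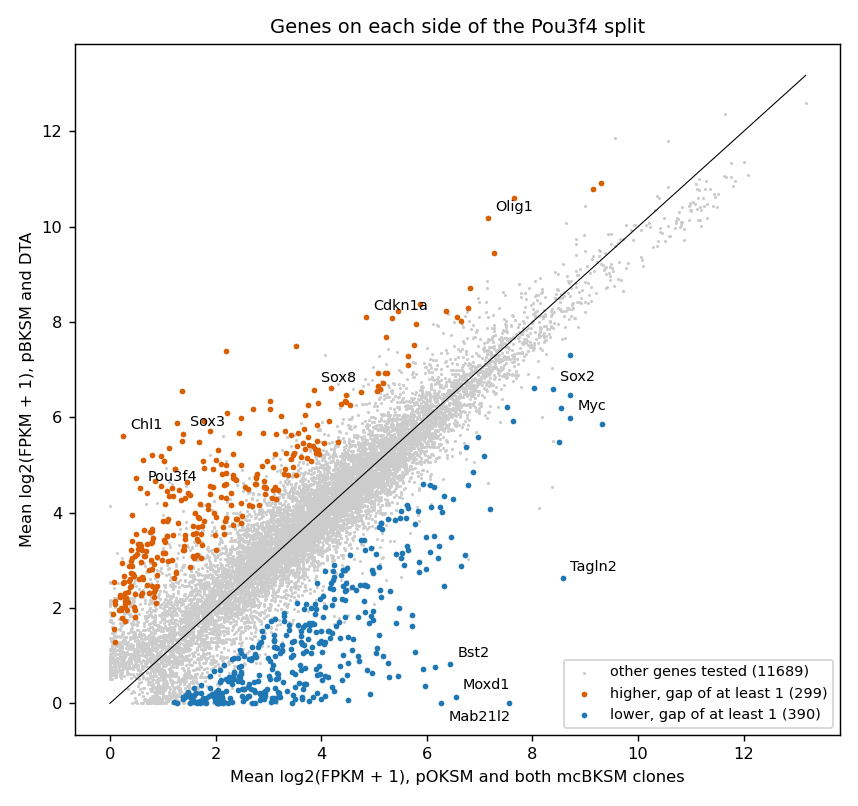
Mean log2(FPKM + 1) of each tested gene in pOKSM and both mcBKSM clones (horizontal axis) against pBKSM and DTA (vertical axis); each point is 1 gene and the line marks equal means. The 299 higher genes (orange) and 390 lower genes (blue) have a gap of at least 1 between the nearest libraries of the sides, and many blue points lie near 0 on the vertical axis.

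The 15 widest gaps each way were taken among genes with at least 5 FPKM in every library of the side where they are higher. Predicted, microRNA, snoRNA and ribosomal protein genes and names ending in Rik were skipped. The widest of these gaps among higher genes, 4.36 log2 units, was at Chl1, a neural adhesion gene of the L1 family (chromosome 6, 103510584 to 103733038). Chl1 was 29.5 and 77.2 FPKM against 0.492, 0.0618 and 0.0681, and 122 FPKM in cNSC. Pcdhgb7, a clustered protocadherin gene, was 13.9 and 15.1 FPKM against 0.474, 0.375 and 0.192. It shares its last exons with other genes of the cluster, so the share of its reads is uncertain. Scrg1, a gene of a small secreted protein, was 29.1 and 29.3 FPKM against 3.17, 1.40 and 0.279. All 3 were near or under 3 FPKM in every low-side library.

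Several of the other genes with wide gaps are expressed in glia. Timp4, a metalloproteinase inhibitor gene that lies within Syn2, was 28.1 and 67.5 FPKM against 3.13, 3.83 and 0.652. Slc15a2, the gene of a peptide transporter of astrocytes, was 37.3 and 52.9 FPKM against 6.50, 1.20 and 0.0385. Sox8, a SoxE factor of the oligodendrocyte lineage, was 87.8 and 102 FPKM against 19.9, 10.7 and 11.8. Each of these 3 genes had a gap above 2. Inhbb, which encodes an activin subunit, was 10.3 and 11.1 FPKM against 1.19, 0.131 and 0.108, and Atp6v0e2, which encodes a proton pump subunit, was 73.4 and 119 FPKM against 14.2, 0.0807 and 0.0444. Atp6v0e2 and Plekhb1 (41.2 and 30.5 FPKM against 4.88, 0.126 and 0.138) were the genes in which pOKSM stood farthest above the clones among these 15. Fbxo2, Anks1b, Il18 and Kcnn2 were also among the 15, with gaps from 2.08 to 2.45, and Pou3f4 with 2.69.

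Among lower genes ranked in the same way Moxd1, the gene of a copper-dependent monooxygenase (chromosome 10, 24223517 to 24302783), had the widest gap at 6.29 log2 units. Moxd1 was 89.1, 89.3 and 98.9 FPKM in pOKSM, clone 1 and clone 3 against 0.148 and 0.0601 in pBKSM and DTA. Mab21l2, a gene needed for eye development that lies within Lrba, was 59.3, 87.7 and 85.3 FPKM on the low side and listed at 0 in pBKSM and DTA. Lck, a kinase gene best known from T cells, was 0.136 and 0.460 FPKM against 48.999, 69.4 and 68.3. These genes were strongly expressed in all 3 low-side libraries, and none was high in MEF, where Moxd1 was 0.0420 FPKM, Lck 0.128 and Mab21l2 0. In cNSC Mab21l2 was 10.1 FPKM, and Moxd1 and Lck were under 1 FPKM.

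Other lower genes were also high in fibroblasts. Tagln2, an actin-binding protein gene, was 9.40 and 2.70 FPKM against 312, 409.9 and 434, with 368 FPKM in MEF and 86.8 in cNSC. Prkcdbp, which encodes a caveolar coat protein, was 0.101 and 1.03 FPKM against 31.4, 63.7 and 39.2, with 127 in MEF. Ddr2, a collagen receptor gene, was 0.434 and 0.675 FPKM against 24.96, 33.3 and 32.7, with 80.8 in MEF. For these 3 genes every low-side library was nearer to MEF than pBKSM and DTA were, and for Tagln2 and Prkcdbp both pBKSM and DTA lay below cNSC. The rest of the 15 were Rcan2, Bst2, Isyna1, Slc38a4, Crip1, Lama4, Tfpi, Ydjc and Hoxd13, with gaps from 3.51 to 4.92.

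**Figure D3:**
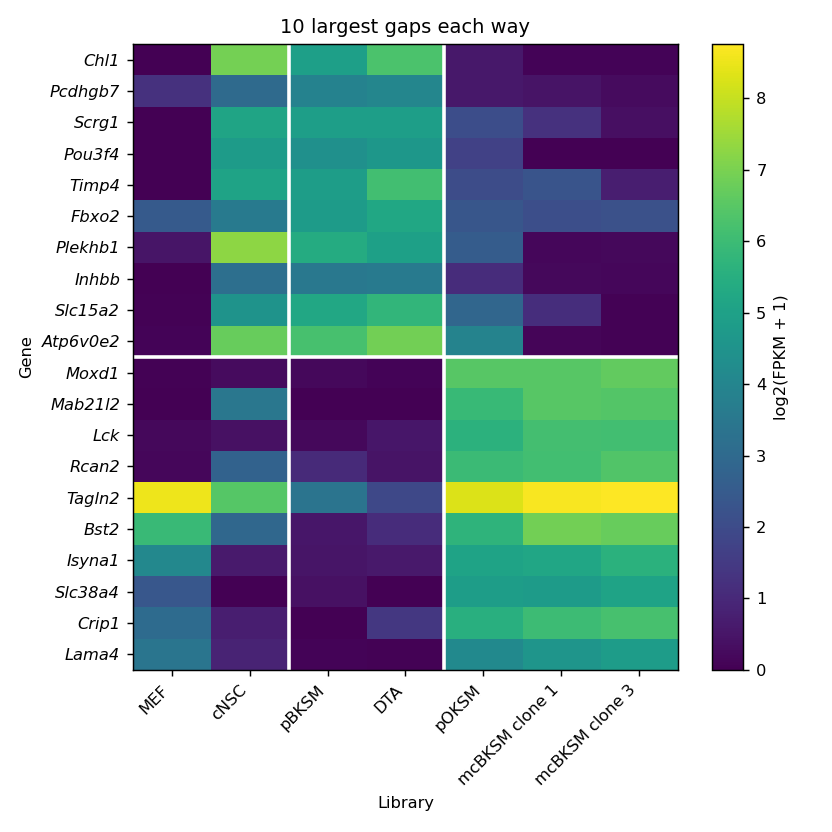
Heat map of log2(FPKM + 1) in the 7 libraries (columns) for the first 10 genes by gap in each direction (rows). Genes with at least 5 FPKM in every library of the side where they are higher were ranked. Predicted, microRNA, snoRNA and ribosomal protein genes and names ending in Rik were skipped. Genes higher on the Pou3f4-expressing side are above the white line and lower genes beneath it. In the upper rows pBKSM and DTA are bright and the mcBKSM clones dark, with pOKSM between them in rows such as Atp6v0e2; in the lower rows the 3 low-side libraries are bright, and MEF is bright in rows such as Tagln2 and Bst2.

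The cNSC and MEF libraries were not used to choose the genes. Over all tested genes, cNSC stood at least 2-fold above MEF at 15.1% and MEF at least 2-fold above cNSC at 12%. Of the 299 higher genes, 191 (63.9%) were higher in cNSC and 20 (6.69%) higher in MEF. Of the 390 lower genes, 147 (37.7%) were higher in MEF, 70 (17.9%) higher in cNSC and 173 (44.4%) within 2-fold. The median cNSC minus MEF difference was 1.65 log2 units for higher genes, -0.29 for lower genes and 0.03 for all. Neither cNSC nor MEF has a replicate, and their strains differ, so the shares carry no test. Without pBKSM the shares were 44.98% and 30.6%. The cNSC value lay on the pBKSM and DTA side of the midpoint for 79.6% of the higher and 79.0% of the lower genes, against 66.2% of all tested genes. The MEF value lay on that side for 26.8% of the higher genes, 57.2% of the lower genes and 50.3% of all, so at most of the lower genes MEF was nearer to pBKSM and DTA than to the low side.

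Within the low side pOKSM, the library with some Pou3f4, was nearest to the Pou3f4-expressing side at 265 of the 299 higher genes (88.6%). The nearest library at a higher gene is the highest of the low side, and pOKSM was the highest at 35.4% of all tested genes. At the lower genes, where the nearest is the lowest, pOKSM was nearest at 289 of 390 (74.1%). The share of all tested genes at which it was the lowest was not computed. At the higher genes pOKSM lay at a median of 0.313 of the distance from the clones to the other side, and it was 2-fold or more from the clones' mean at 105 (35.1%). At the lower genes it lay at 0.141 of the distance and was 2-fold or more apart at 23 (5.90%). The higher genes were thus more graded within the low side than the lower genes, as a description of the values that chose them. Sox3 shows the gradation, with 58.8 and 41.8 FPKM against 12.9, 0.177 and 0.0779. When Pou3f4 of 1 FPKM was used as the split, which places pOKSM with pBKSM and DTA, 155 genes were higher and 21 lower with a gap of at least 1, of which 77 and 11 belonged to the sets above. Higher genes then made up 88.1% of the set, against 43.4% with the split at 10 FPKM.

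Astrocyte genes were mostly higher on the Pou3f4-expressing side. Of 18 tested, 13 were higher (72.2%) and 3 lower (16.7%) without overlap, against 28.6% of all tested genes each way. A gap of at least 1 was found at 4 higher genes and no lower gene, against 2.42% and 3.15% of all tested genes. The median difference was 1.61 log2 units. Aldoc, the brain form of aldolase, was 431 and 411 FPKM against 127, 106 and 102. Glul, which encodes glutamine synthetase, was 150.0 and 160.4 FPKM against 55.6, 51.1 and 41.8. Slc1a3, the glutamate transporter gene also called GLAST, was 168 and 437 FPKM against 65.4, 32.3 and 29.5. In all 3 genes each Pou3f4-expressing library exceeded the highest low-side library by more than 2-fold. The folate enzyme gene Aldh1l1 was 2.92 and 3.20 FPKM against at most 0.573. Gfap, the filament gene of mature astrocytes, was 1.70 FPKM in pBKSM and 24.5 in DTA against at most 0.538, far below its 374 FPKM in cNSC. The lower genes were Gja1, Sox9 and Cd44, the last with 10.7 and 10.8 FPKM against 21.4, 33.0 and 26.6. Apoe and Clu overlapped between the sides, Apoe with 11.4 and 199.7 FPKM against 15.6, 56.5 and 35.0.

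Oligodendrocyte lineage genes were divided, with 8 of 15 higher (53.3%) and 5 lower (33.3%), against 28.6% of all tested genes each way. Gaps of at least 1 were found at 4 higher genes and 1 lower gene, and the median was 1.17. Olig1, a lineage transcription factor gene, was 1038 and 1295 FPKM against 323, 109.8 and 79.6. Bcas1, a gene of early myelinating cells, was 40.9 and 109 FPKM against 9.70, 2.98 and 1.36. Omg, a myelin glycoprotein gene that lies within Nf1, was 1.93 and 10.6 FPKM against at most 0.193. Pdgfra, the receptor gene of oligodendrocyte progenitors, was on the other side with 1.06 and 0.902 FPKM against 6.995, 8.07 and 8.12, and it was 108 FPKM in MEF. Nkx2-2, a ventral progenitor factor gene, was 15.01 and 3.23 FPKM against 28.8, 40.7 and 34.8. Olig1 and both myelin-related genes thus differed in the opposite direction to Pdgfra and Nkx2-2. The list members Sox10, Mbp, Mag, Mog, Gpr17 and Cldn11 were below the filter in every iNSC line. Sox10 was at most 0.145 FPKM there and the myelin gene Mbp at most 0.476.

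Of 28 radial glia and neural progenitor genes, 15 were higher (53.6%) and 8 lower (28.6%), with 3 gaps of at least 1 each way and a median of 0.78. The lower share was the same as the 28.6% of all tested genes. Ncan, a proteoglycan gene of the neural matrix, was 63.2 and 102 FPKM against 17.6, 6.002 and 3.15. Lifr, the receptor gene of leukemia inhibitory factor, was 7.95 and 13.6 FPKM against 2.57, 0.929 and 0.395. Fabp7, the lipid-binding protein gene of radial glia, was 5051 and 2725 FPKM against 1450.2, 642 and 459. Among the lower genes were Id4, an inhibitor of bHLH factors, with 0.984 and 3.73 FPKM against 16.6, 18.8 and 20.1, and Prom1, which encodes the surface protein prominin, with 2.06 and 0.345 FPKM against 9.65, 9.18 and 11.7. The list therefore held wide gaps in either direction.

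The Sox genes differed by member: 3 of 12 tested were higher (25%) and 6 lower (50%), against 28.6% of all tested genes each way. Besides Sox2, the SoxB1 gene Sox1 was 2.31 and 8.39 FPKM against 27.4, 27.1 and 27.7, and Sox11, a SoxC gene of immature neurons, was 17.6 and 15.4 FPKM against 60.4, 66.1 and 74.2. Sox3, the remaining SoxB1 gene, was on the other side, as were Sox8 and Sox5 (6.74 and 8.62 FPKM against 3.70, 2.62 and 2.49). The SoxB1 genes, which act alike in progenitors, were thus split, with Sox1 and Sox2 lower and Sox3 higher where Pou3f4 was expressed. Sox3 lies on X, as Pou3f4 does, and most X-linked genes were higher on that side, as described below.

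Neuronal genes were mostly lower. Of 18 tested, 11 were lower and 5 higher, 9 lower genes and no higher gene had a gap of at least 1, and the median was -1.42. Rbfox3, the gene of the neuronal protein NeuN, was 1.62 and 0.497 FPKM against 19.9, 29.7 and 25.97. Elavl4, an RNA-binding protein gene of neurons, was 1.48 and 0.812 FPKM against 12.4, 13.5 and 20.7. Syt1, the calcium sensor gene of synaptic vesicles, was 9.55 and 0.511 FPKM against 41.5, 43.01 and 46.4. In these 3 genes cNSC was at most 2.19 FPKM. The neurofilament gene Nefm was 0.0562 and 0.172 FPKM against 4.39, 7.16 and 4.41. The interneuron factor gene Dlx1 was 2.11 and 1.57 FPKM against 12.98, 10.9 and 19.4 and was also expressed in MEF at 20.3 FPKM. The summed level of the 31 neuronal genes did not separate the sides, at 321 FPKM in pBKSM and 191 in DTA against 333, 284 and 337. A large part of each sum came from Map2, which overlapped between the sides, with 259 and 112 FPKM against 158, 113 and 160. The sum therefore says little about the other members.

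**Figure D4:**
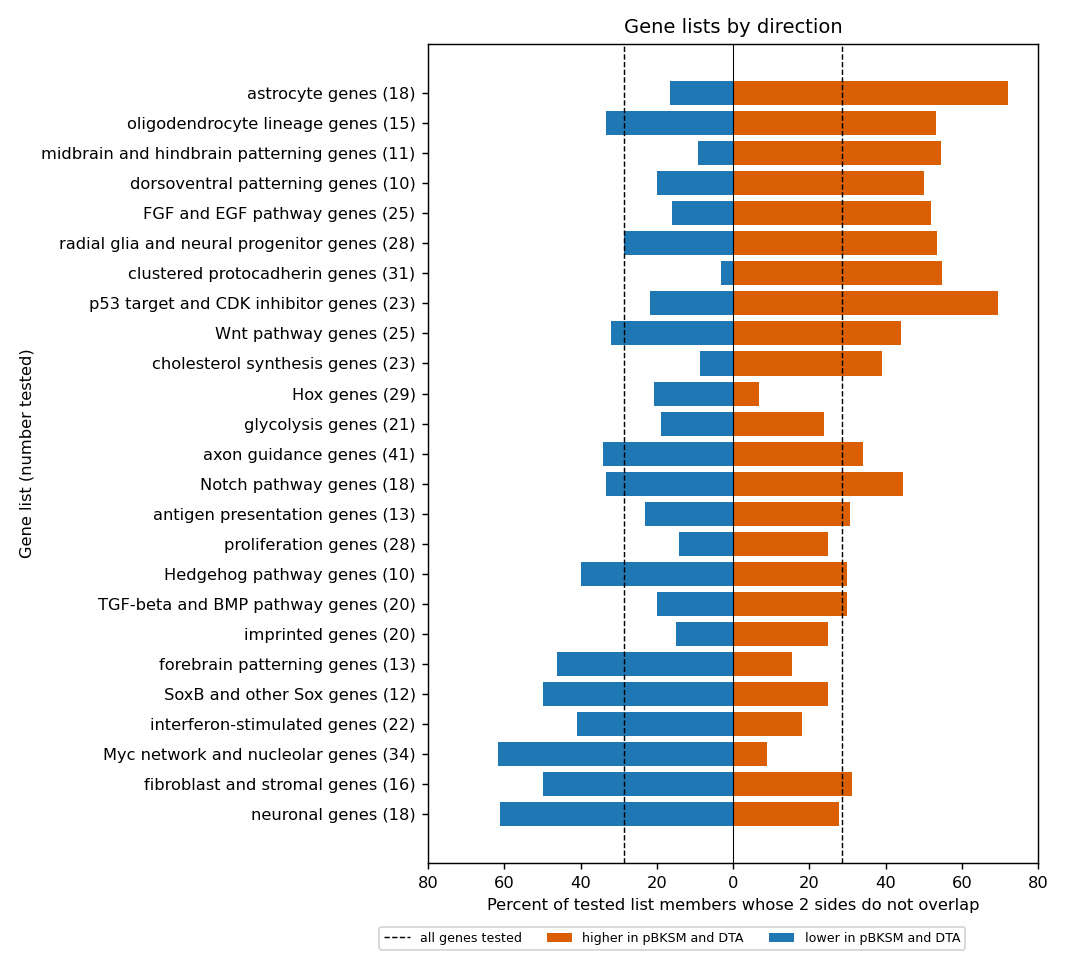
Percent of the tested members of each gene list whose sides did not overlap (horizontal axis; right, orange, higher in pBKSM and DTA; left, blue, lower), for lists of at least 10 tested genes, ordered by median difference. Dashed lines mark the 28.6% of all tested genes in each direction; astrocyte genes reach 72.2% higher, p53 target and CDK inhibitor genes 69.6% higher, neuronal genes 61.1% lower and Myc network genes 61.8% lower.

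Genes of the Myc network and the nucleolus were mostly lower, as Myc was. Of 34, 21 were lower (61.8%) and 3 higher (8.82%), against 28.6% of all tested genes each way, with a median of -0.62. A gap of at least 1 was found at 2, Myc and Gnl3, both lower, against 3.15% of all tested genes. Gnl3, which encodes nucleostemin, was 58.3 and 38.1 FPKM against 121, 120.5 and 131. Nop56, a gene of ribosomal RNA modification, was 118 and 82.9 FPKM against 213, 223 and 223. The summed level of the list was 4968 FPKM in pBKSM and 2549 in DTA against 5643 to 6089 on the low side. The sides were thus separate for the sum, while pBKSM and DTA differed from each other more than pBKSM did from the low side. Myc is itself a member of the list and added 78.9 and 50.1 FPKM to the sums against 339, 449.6 and 485.

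Of 23 p53 target and CDK inhibitor genes, 16 were higher (69.6%) and 5 lower (21.7%), with gaps of at least 1 at 4 and 2 and a median of 0.62. Cdkn1a, the CDK inhibitor gene p21, was 274 and 275 FPKM against 65.3, 33.05 and 9.55. Cdkn2c, another CDK inhibitor gene, was 47.9 and 55.3 FPKM against 14.1, 5.64 and 8.87. The p53 targets Fas, a death receptor gene, and Phlda3 were 3.64 and 7.05 FPKM against at most 0.666 and 70.8 and 83.4 FPKM against 25.6, 20.7 and 14.5. Among the 5 lower genes were Trp53, the gene of p53 itself, with 77.96 and 68.5 FPKM against 184, 193 and 173, and Cdkn2a, the gene of p16 and Arf, with 97.5 and 53.6 FPKM against 295, 453 and 378. The p53 target Bbc3, a pro-apoptotic gene chosen here after its values were seen, was also lower with 12.8 and 17.2 FPKM against 30.5, 37.97 and 34.4, and so were Tigar and Cdkn2b, with gaps under 1. The p53 targets thus differed in both directions. Of 28 proliferation genes 7 were higher (25%) and 4 lower (14.3%), both under the 28.6% of all tested genes, with no gap of at least 1 and a median of 0.08. The widest gap there was at the cyclin gene Ccnd1, with 421 and 413 FPKM against 239, 118 and 95.9.

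Signalling genes were read against the 28.6% of all tested genes that were separate in each direction. In the FGF and EGF list 13 of 25 were higher (52%) and 4 lower (16%), with a median of 0.89. The ligand gene Fgf1 was 19.4 and 22.9 FPKM against 6.01, 0.251 and 0.0987, and Areg, a ligand of the EGF receptor, was 9.82 and 5.80 FPKM against at most 0.930. The feedback phosphatase gene Dusp6 was 123 and 116 FPKM against 60.3, 48.5 and 55.3, and the receptor gene Fgfr2 was lower with 3.44 and 4.90 FPKM against 9.86, 15.4 and 10.8. In the Wnt list 11 of 25 were higher (44%) and 8 lower (32%), with a median of 0.50. The receptor gene Fzd10 was 9.16 and 9.05 FPKM against 2.26, 0 and 0, and the target gene Axin2 was 8.67 and 22.4 FPKM against 3.38, 2.93 and 0.866. The secreted Wnt modulator gene Sfrp2 was 5.69 and 3.09 FPKM against 24.2, 20.04 and 29.5. In the FGF and EGF list no lower gene had a gap of at least 1, and in the Wnt list Sfrp2 was the 1 lower gene of 8 that had.

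In the Notch list 8 of 18 were higher (44.4%) and 6 lower (33.3%), with a median of 0.18. The target gene Hey1 was 21.2 and 24.7 FPKM against 94.9, 112 and 122, near the 23.4 FPKM of cNSC in pBKSM and DTA. The ligand gene Dll1 was 31.5 and 32.6 FPKM against 18.3, 14.3 and 16.8, and Hes6, a Hes family gene that favours neurogenesis, was 160.1 and 114 FPKM against 52.999, 52.5 and 42.8. The widest gaps of the list, in opposite directions, were therefore both at Hes-related factors. In the Hedgehog list 3 of 10 were higher (30%) and 4 lower (40%), with the effector gene Gli2 at 1.26 and 3.36 FPKM against 11.5, 12.7 and 14.3 and the co-receptor gene Cdon at 10.1 and 23.4 FPKM against 4.96, 0.323 and 1.21. Of 20 TGF-beta and BMP genes 6 were higher (30%) and 4 lower (20%), which is near or under the background of 28.6%, and the BMP target Id3 was 620.2 and 347 FPKM against 175, 139 and 111.

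Positional genes differed between the sides at single loci, and many Hox genes also divided pBKSM from DTA. Of 29 Hox genes 2 were higher (6.90%) and 6 lower (20.7%), both under the 28.6% of all tested genes. Hoxd13, which patterns the distal limb and hind gut (chromosome 2, 74668225 to 74671603), was 15.5, 11.5 and 18.6 FPKM on the low side against 0.0372 and 0.101 in pBKSM and DTA. Hoxd9 was 8.61, 10.8 and 10.4 FPKM and Hoxd10 5.12, 4.23 and 7.38 FPKM on the low side, and both were listed at 0 in pBKSM, DTA, MEF and cNSC. Hoxd13 was listed at 0 in MEF and cNSC as well, so these 3 HoxD genes were above 1 FPKM in the low-side libraries alone of the 7. Hoxa5, a cervical Hox gene, was 10.8 and 10.7 FPKM against 2.14, 1.26 and 2.77. Hoxb3 divided the Pou3f4-expressing side, being listed at 0 in pBKSM and 5.73 FPKM in DTA against 19.2, 17.1 and 22.7.

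Of 13 forebrain genes 2 were higher (15.4%) and 6 lower (46.2%), against 28.6% of all tested genes each way, with a median of -0.29. The cortical selector gene Lhx2 was 13.2 and 12.2 FPKM against 30.5, 31.9 and 40.3. Of 11 midbrain and hindbrain genes 6 were higher (54.5%) and 1, Mab21l2, lower (9.09%), with a median of 1.02. Of 10 dorsoventral genes 5 were higher (50%) and 2 lower (20%). Irx3, a neural tube patterning gene held by both of the last lists, was 4.58 and 13.2 FPKM against 1.42, 1.79 and 0.203. Olig2, the ventral factor gene beside Olig1, was 423 and 193 FPKM against 148, 65.1 and 59.5. Each of these 3 lists held members of either direction.

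Of 31 clustered protocadherin genes 17 were higher (54.8%) and 1 lower (3.23%), with a median of 0.66. Pcdhgc3 was 294 and 332 FPKM against 129.7, 120.4 and 81.9. Exons shared within the cluster make single values uncertain. Of 41 axon guidance genes 14 were higher and 14 lower, which is 34.1% each way and near the 28.6% of all tested genes. A gap of at least 1 was found at 2 higher and 7 lower genes, against 2.42% and 3.15% of all tested genes. Slit1, a repellent gene, was 0.373 and 0.265 FPKM against 11.2, 9.33 and 16.3. Epha3, an ephrin receptor gene, was 0.678 and 0.0613 FPKM against 12.1, 9.15 and 14.7. Dcc, the netrin receptor gene, was 2.08 and 0.953 FPKM against 8.53, 9.995 and 11.4, while Ntn1, the netrin gene, was 60.9 and 41.4 FPKM against 14.8, 7.28 and 2.11. The ligand and receptor of this pair therefore differed in opposite directions.

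Of 22 interferon-stimulated genes 9 were lower (40.9%) and 4 higher (18.2%), against 28.6% of all tested genes each way, with a median of -0.47. Bst2, the gene of the antiviral protein tetherin, was 0.436 and 1.18 FPKM against 51.5, 117 and 104. Cxcl10, a chemokine gene, was 0.0929 and 2.64 FPKM against 16.5, 45.3 and 57.1. Ifit2, an RNA-binding antiviral gene, was on the other side with 1.78 and 11.4 FPKM against at most 0.234, and the list had no common direction. Of 13 antigen presentation genes 4 were higher (30.8%) and 3 lower (23.1%), near or under the 28.6% of all tested genes. The class I gene H2-K1 was 7.30 and 5.03 FPKM against 60.997, 45.2 and 88.6, but reads of near-identical class I genes can be divided between copies, so this value is uncertain. The peptide transporter gene Tap1, which lies on the same pathway, was 7.49 and 8.23 FPKM against 3.43, 0.217 and 1.75.

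Of 23 cholesterol synthesis genes 9 were higher (39.1%) and 2 lower (8.70%), with a median of 0.29. The early pathway enzyme gene Hmgcs1 was 286 and 205 FPKM against 133, 104 and 113. Of 21 glycolysis genes 5 were higher and 4 lower. Pfkp, a phosphofructokinase gene, was 0.312 and 0.997 FPKM against 7.63, 13.8 and 13.5. Of 20 imprinted genes 5 were higher and 3 lower. Plagl1, a paternally expressed zinc finger gene, was 0.777 and 0.538 FPKM against 12.8, 13.6 and 15.4, and Peg3, another paternally expressed gene, was 15.5 and 22.7 FPKM against 6.85, 2.16 and 2.95. The glycolysis and imprinted lists were under the background of 28.6% in both directions, with wide gaps at single genes.

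Marker genes of other cell types were read beside these results. The 32 fibroblast genes summed to 122 FPKM in pBKSM and 120 in DTA and to 155, 191 and 164 in pOKSM, clone 1 and clone 3, against 9693 in MEF. Of the 16 tested, 8 were lower (50%) and 5 higher (31.25%), against 28.6% of all tested genes each way. Col3a1, a fibrillar collagen gene, was 0.271 and 0.260 FPKM against 20.2, 10.3 and 25.8, and Fbn1, a microfibril gene, was 2.95 and 2.08 FPKM against 18.7, 22.4 and 21.9. The defining gene Col1a1 and the surface marker gene Thy1 stayed under 1 FPKM in all 5 lines. The 15 microglial genes summed to at most 10.9 FPKM and the 13 endothelial genes to at most 3.69, and the defining genes Ptprc and Pecam1 were at most 0.128 and 0.466 FPKM. The 15 neural crest and Schwann cell genes summed to 40.2 FPKM in pBKSM and 48.7 in DTA against 13.2, 12.2 and 6.23, mostly from Pmp22, a myelin gene that many cells express, with 25.2 and 37.7 FPKM against 8.23, 7.17 and 1.27. The part of such cells in the differences was not tested, and in libraries of many cells, fewer cells of a type and less RNA per cell cannot be told apart.

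The octamer was searched on both strands of the 250 bases before the start of each RefSeq promoter entry, which for some genes lies inside the annotated span of the gene. It was present for 1.81% of 27025 genes with an entry. Entries were found for 232 of the 299 higher and 306 of the 390 lower genes, of which 7 and 6 held it, and so many members were without an entry that the comparison with other genes is void. Of the genes described above, Il18 and Col3a1 held the octamer in a window that ends at the annotated start of the gene, and these windows are printed with it in capitals (RefSeq, GRCm38.p6, plus strand, chr9:50554450-50554699 and chr1:45311288-45311537). A match is a description of the letters and not a binding site. Il18, a cytokine gene, was 17.9 and 20.7 FPKM against 3.10, 1.26 and 0.319 and held the octamer in both orientations, while Col3a1 was lower on the Pou3f4-expressing side and held it in forward orientation.

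Il18: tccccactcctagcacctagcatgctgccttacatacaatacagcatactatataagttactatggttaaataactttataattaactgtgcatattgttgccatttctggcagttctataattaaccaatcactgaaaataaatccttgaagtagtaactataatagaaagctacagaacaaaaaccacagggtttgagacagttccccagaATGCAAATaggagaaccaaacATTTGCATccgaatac

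Col3a1: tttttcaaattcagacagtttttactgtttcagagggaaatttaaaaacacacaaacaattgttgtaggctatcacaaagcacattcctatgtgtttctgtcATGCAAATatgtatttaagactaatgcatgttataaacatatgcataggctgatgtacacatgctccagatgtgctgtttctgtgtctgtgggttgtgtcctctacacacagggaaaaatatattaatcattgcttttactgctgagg

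The direction of a gene also went with its chromosome. The split used the level of Pou3f4, itself an X-linked gene, so the values of X-linked genes are not independent of the split. Of 427 tested X-linked genes, 287 (67.2%) were higher without overlap and 37 (8.67%) lower, against 28.6% each way over all genes. Pou3f4 and Sox3 lie on X, and 30 X-linked genes (7.03%), both of them included, were higher with a gap of at least 1, against 2.42%. Among them, named after their values were seen, were Gria3, a glutamate receptor gene, with 26.1 and 41.7 FPKM against 5.74, 0.120 and 0.103, and Gpm6b, a membrane proteolipid gene of neural cells, with 338 and 265 FPKM against 114, 72.7 and 65.3. Lamp2, a lysosomal membrane gene active in most cells, was 93.7 and 107 FPKM against 41.9, 28.5 and 28.9. The X-linked members thus included widely expressed genes beside neural ones.

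To measure this in broadly expressed genes, 6978 genes that reached 5 FPKM in all 7 libraries were compared with cNSC, relative to the median of all of them. The median of the 180 X-linked genes was 0.06 log2 units in pBKSM and 0.01 in DTA, and -0.50, -0.80 and -0.72 in pOKSM, clone 1 and clone 3. Of these genes 171 (95%) had the higher mean on the Pou3f4-expressing side and 146 (81.1%) were higher without overlap, against 26.9% of the 6978. Smaller shifts of the same direction were seen on chromosome 6, at 0.06 and 0.03 against -0.21, -0.44 and -0.26, and on chromosome 16, at -0.08 and -0.05 against -0.26, -0.26 and -0.35. On chromosome 3, 30 of 599 tested genes (5.01%) were lower with a gap of at least 1, against 3.15% of all. On chromosome 11 the shift was in the other direction, at -0.01 and 0.0013 against 0.13, 0.29 and 0.11, and 42.0% of its genes were lower without overlap, against 28.9% of the 6978. Shifts of single libraries were seen in pBKSM on chromosome 1, at 0.30, and in clone 1 on chromosome 9, at -0.28 against 0.04 in pOKSM and 0.04 in clone 3. Chl1, Timp4 and Atp6v0e2 lie on chromosome 6, and Olig1 and Slc15a2 on chromosome 16. Copy number of chromosomes was not measured in these libraries.

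**Figure D5:**
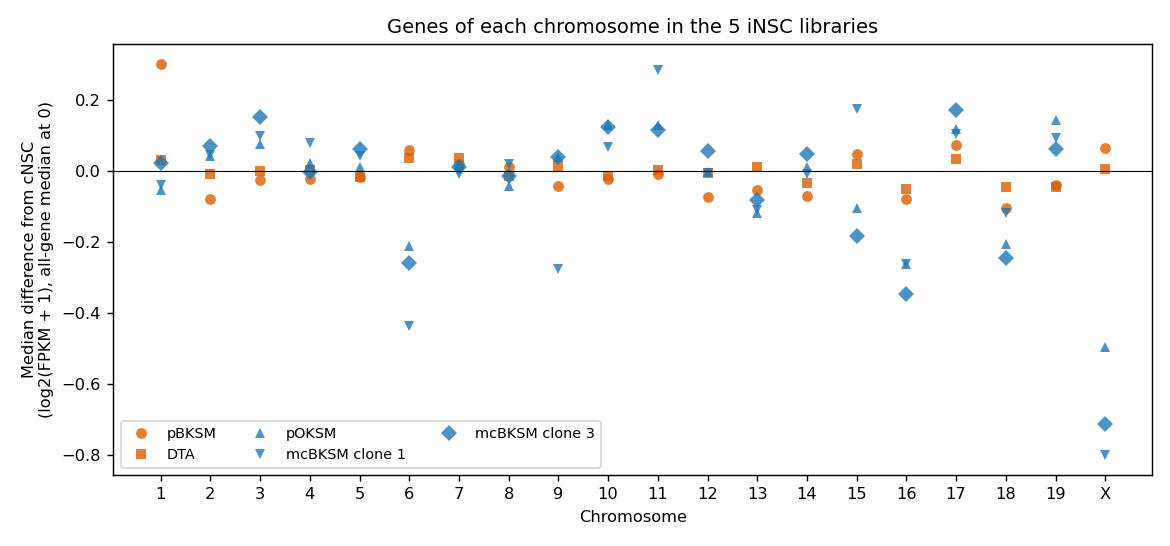
Median difference from cNSC in log2(FPKM + 1) (vertical axis, relative to the median of all genes) of the genes of each chromosome (horizontal axis) in the 5 iNSC libraries, over genes that reached 5 FPKM in all 7; orange symbols are pBKSM and DTA, blue symbols pOKSM and the mcBKSM clones. On X the orange symbols lie at 0.06 and 0.01 and the blue ones between -0.80 and -0.50.

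The sets were formed again with chromosomes treated in other ways. Without X-linked genes there were 269 higher genes, 63.9% of them at least 2-fold higher in cNSC, and 379 lower genes, 38.3% of them at least 2-fold higher in MEF. With each chromosome set to the same median in the iNSC libraries there were 305 higher genes, 255 of them shared with the 299, and 387 lower genes, 364 of them shared with the 390. Y-linked transcripts divided the Pou3f4-expressing side. Ddx3y, a Y-linked helicase gene, was 11.4 FPKM in pBKSM and 0.0391 in DTA against 12.5, 28.3 and 16.2, and was listed at 0 in MEF. Eif2s3y, a Y-linked translation factor gene, was 31.2 FPKM in pBKSM, 0.0730 in DTA and listed at 0 in all 3 low-side libraries, with 48.2 FPKM in cNSC. The Y-linked genes Kdm5d and Uty were listed at 0 in DTA and MEF and were between 2.39 and 8.73 FPKM in the other 4 iNSC lines. Xist, the RNA that coats the inactive X, was at most 0.182 FPKM in any library.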

How the data were processed

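RNA-seq libraries of 7 mouse cell samples were analysed from 1 deposited table of 24354 genes. Its values are FPKM, as deposited by the authors. STAR 2.5.2b, Cufflinks 2.2.1, Cuffnorm, R 3.3.2 and the build mm10 are named in the submitters' processing notes, without the settings or role of each. Cuffnorm scales libraries to each other, and no fragment counts were used here, so counting error is known only through the depth estimate. That estimate takes the spacing of low FPKM values, which are near whole multiples of 1 fragment, and gave 10.7 (pBKSM) to 16.2 (DTA) M fragments.

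From these values log2(FPKM + 1) was computed with Python 3.11.15, pandas 2.3.3 and numpy 2.4.6 (figures: matplotlib 3.10.9). Genes that reached 1 FPKM in any iNSC library were compared as pBKSM and DTA against pOKSM and both mcBKSM clones. A gene counted as separate when all libraries of 1 side exceeded all of the other, and the distance between the nearest libraries is the gap. The members, the 32 gene lists and the naming rule were chosen with earlier results of these data known. Genes were named as factor genes, as up to 6 members of each list by gap, as the 15 widest gaps each way among genes with at least 5 FPKM on the higher side (predicted, microRNA, snoRNA and ribosomal protein genes skipped), as sex-linked genes, or as genes at the edge of the set. Nes, Col1a1, Thy1, Fabp7, Gfap, Ptprc and Pecam1 are list members, and Plekhb1, Gria3, Gpm6b and Lamp2 were singled out, after their values were seen. The list members Cd44, Gja1, Sox9, Apoe, Clu, Hoxa4, Hoxa9, Hoxb8 and Hoxc8 were also named after their values were seen. So were the oligodendrocyte lineage genes below the filter. Some genes that the rule names are not reported here. No test was run between the sides. The code for the comparison was tested on simulated data. Coordinates and sequences are from RefSeq on GRCm38.p6, and 93 of the 193 named genes overlap another annotated gene, whose reads may be shared. Alternatives changed the pseudocount, filter, scaling, split, treatment of the clones, libraries and chromosomes.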

Additional observations from a re-analysis of the deposited data

How the results depend on the processing

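Of the side differences of named genes recomputed under each setting, 2393 stayed within the spread of the libraries, 305 moved beyond it and 4 moved beyond it with a change of sign. Changes of sign within the spread are not counted among the 4. With a pseudocount of 0.1 there were 512 higher and 646 lower genes with a gap of at least 1, all of the 299 and 390 among them. With the split at 1 FPKM of Pou3f4, there were 155 higher and 21 lower genes, and the shares with higher levels in cNSC and in MEF were 78.1% and 52.4%. Under that split the side difference of Fezf2 turned to 0.14 and that of Cspg4 to 0.0015 log2 units, both negative otherwise and both of genes under 3 FPKM on either side. Leaving out 1 library at a time gave 301 to 976 higher and 403 to 771 lower genes, shares in cNSC of 44.98% to 63.8%, and shares in MEF of 30.6% to 39.3%, with the highest counts and lowest shares without pBKSM. Without DTA there were 657 and 645 genes and the share in cNSC was 56.2%, and without pOKSM 679 and 552. A set can only grow when a library is left out. Setting each chromosome to the same median, chosen after seeing the data like the removal of X-linked genes, turned the X-linked Eif2s3x to -0.13 and Kdm6a to -0.15. Quantile normalization (309 and 412), median scaling (283 and 408), 1 value for both clones (318 and 428), a 5 FPKM filter (268 and 321) and no filter (299 and 390) stayed within 1.5 times the counts. No paired analysis was possible because each line has 1 library and the result comes from no test. Depth limits statements on values under about 0.140 FPKM.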
